A study of Arabidopsis thaliana with 4 samples.

Results

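The comparison described here sets roots of the mutant wrky47 against roots of the wild type after both had spent 6 h with aluminium. It consists of 2 of the 4 arrays of the study, 1 array for each genotype, and it was taken as the log2 signal of the wrky47 array minus that of the wild-type array for every gene with a probe set of its own. The array design covered 20341 such genes, of which 12602 were above the detection floor on both arrays and are called measured. The study hybridised total RNA from roots of 4-week-old Arabidopsis thaliana plants grown in hydroponic culture. The aluminium groups were wild type and wrky47 (line wrky47-1), each kept in 0.5 mM CaCl2 to which 25 µM AlCl3 had been added. The control groups were the same 2 genotypes kept for the same 6 h in the CaCl2 solution alone. One mutant line was used, the nature of its lesion is not stated in the labels, and how many plants went into an array is not stated there either.

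WRKY proteins are plant transcription factors that bind W-box elements in promoters, and many of them act in immunity and in responses to nutrients and stress. Aluminium dissolves in acid soils and binds to the root cell wall, where xyloglucan, pectin and the enzymes that modify them set how much metal the wall holds. Arabidopsis also excludes aluminium by releasing malate and citrate through the transporters ALMT1 and MATE under the factor STOP1, and moves it away from sensitive sites through ALS1, ALS3 and STAR1.

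Each group was measured on 1 array, which leaves no replicate spread to judge a difference by. No p-value is therefore given, and each value below contrasts 1 mutant array with 1 wild-type array. Across the measured genes the log2 difference had a median of 0.00 and an SD across genes of 0.235, and the 2.5th and 97.5th percentiles were -0.441 and 0.478. The detection floor was the 40th percentile of the signal on each array, and it lay at a signal of 75.1 on the wrky47 Al array and at nearly the same level on the wild-type Al array. Bacterial spike-in probe sets differed between these arrays by -0.09 to 0.32 for the 18 hybridisation controls and by -0.32 to 0.36 for the 27 poly-A controls. The 3′ to 5′ ratio of 1 pair of actin control probe sets was 3.69 in wild type and 4.05 in wrky47. That of 1 GAPDH pair was 1.19 and 1.04. A second actin pair had log2 signals of 12.90 (3′) and 12.15 (5′) in wild type and 12.91 and 12.23 in wrky47. A second GAPDH pair had 13.00 and 12.93 in wild type and 13.18 and 12.97 in wrky47. In both second pairs the genotype order of the ratio was reversed, and the second actin ratio was smaller than the first. The roots expressed SCR and SHR, factors of ground tissue patterning, and PYK10, a root beta-glucosidase, but the epidermal factors WER and GL2 were below the floor on both Al arrays. The 13 leaf photosynthesis genes on the array, of which 5 were measured, had a summed signal of 1318 on the wild-type array and 1036 on the mutant array. In whole roots fewer cells of a type and less RNA per cell cannot be told apart.

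The mutated gene came first, as a check of the labels. Signals are in linear units and are given for wild type and then wrky47 in control solution, followed by wild type and then wrky47 in Al. WRKY47 (AT4G01720, chromosome 4, 744948 to 748219, plus strand, in coordinates of the deposited annotation whose build is not stated) had signals of 173, 27.5, 203 and 24.1. Both mutant arrays were thus below the floor and both wild-type arrays above it. In Al the wild-type signal was at least 2.71-fold higher than in wrky47, counted against the floor of the mutant array.

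ELP (AT1G12090, chromosome 1, 4090175 to 4090589, minus strand), which encodes an extensin-like protein of the wall, had signals of 731, 191, 276 and 46.4. It was lower in the mutant than in the wild type in each solution, and below the floor only on the wrky47 Al array, where the bound was at least 3.67-fold lower than wild type. XTH17 (AT1G65310, chromosome 1, 24257261 to 24258319, plus strand), an enzyme that cuts and rejoins xyloglucan, had signals of 130, 63.1, 554 and 343. Its signal was higher on both Al arrays than on either control array, and it was lower in wrky47 by 0.69 (log2 difference -0.69). ELP and XTH17 were looked up because the published account of WRKY47 connects both with it, so their direction is not independent evidence here.

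**Figure D1:**
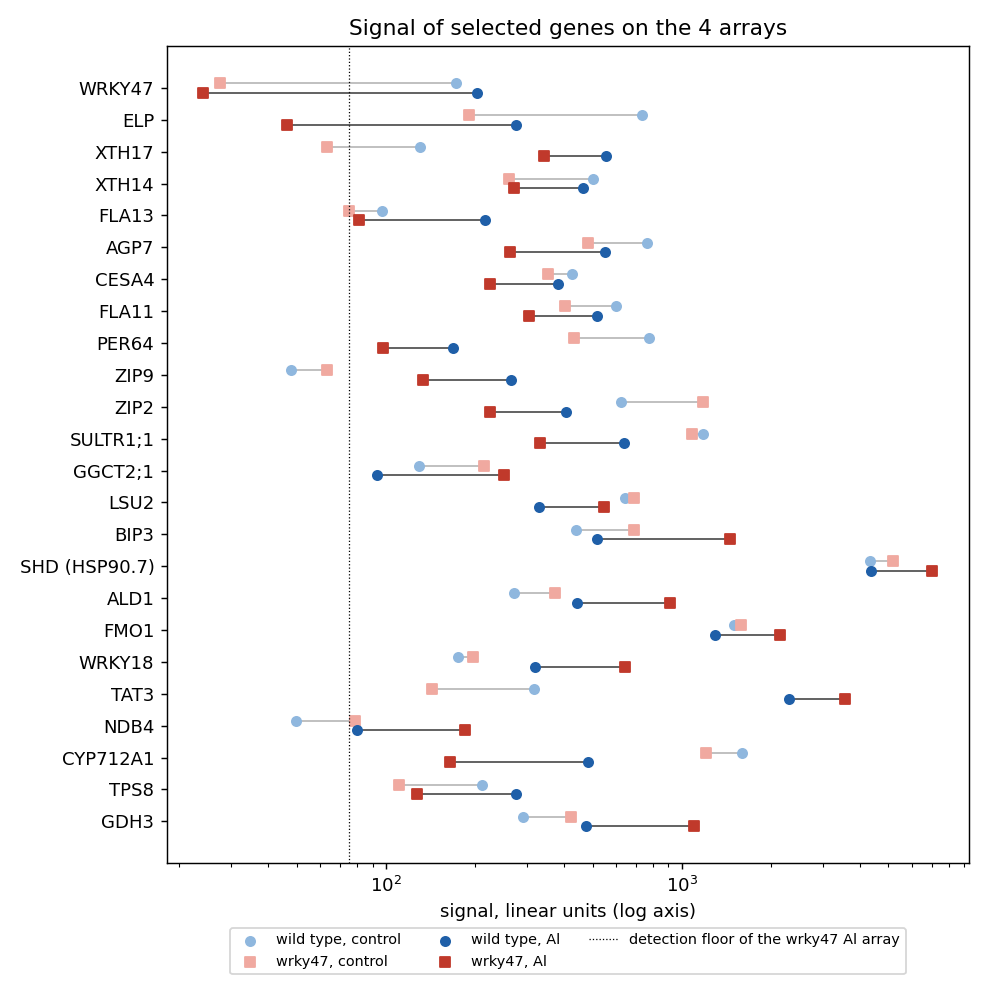
Signal (linear units, log axis) of 24 genes named in the text on each of the 4 arrays, as 1 point per array, with circles for wild type and squares for wrky47, pale for control solution and dark for Al; lines join the genotypes within a solution. WRKY47 and ELP lie below the dotted detection floor on the wrky47 Al array, and BIP3 is brightest on that array, at 1462.

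In Al, 29 measured genes were higher in wrky47 by 2-fold or more (0.23% of 12602) and 14 were lower by 2-fold or more (0.111%). Another 3 genes in each direction passed 2-fold as a bound, being above the floor on 1 of the arrays only. At 1.5-fold the counts were 171 higher (1.36%) and 126 lower (1%). Differences ranged from -1.56 to 1.63, and 3 genes were higher by 3-fold or more while 0 were lower by that much. The genes past 2-fold were spread over the nuclear chromosomes, with 7, 7, 4, 6 and 5 of the higher genes and 4, 2, 2, 1 and 5 of the lower genes on chromosomes 1 to 5. They included 2 pairs of close neighbours: AT2G04050 and AT2G04070, both annotated as MATE efflux proteins and both higher, and AT1G52800 and AT1G52820, both annotated as 2-oxoglutarate-dependent oxygenases and both lower. Members of a pair are similar genes, and cross-hybridisation between them was not tested.

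**Figure D2:**
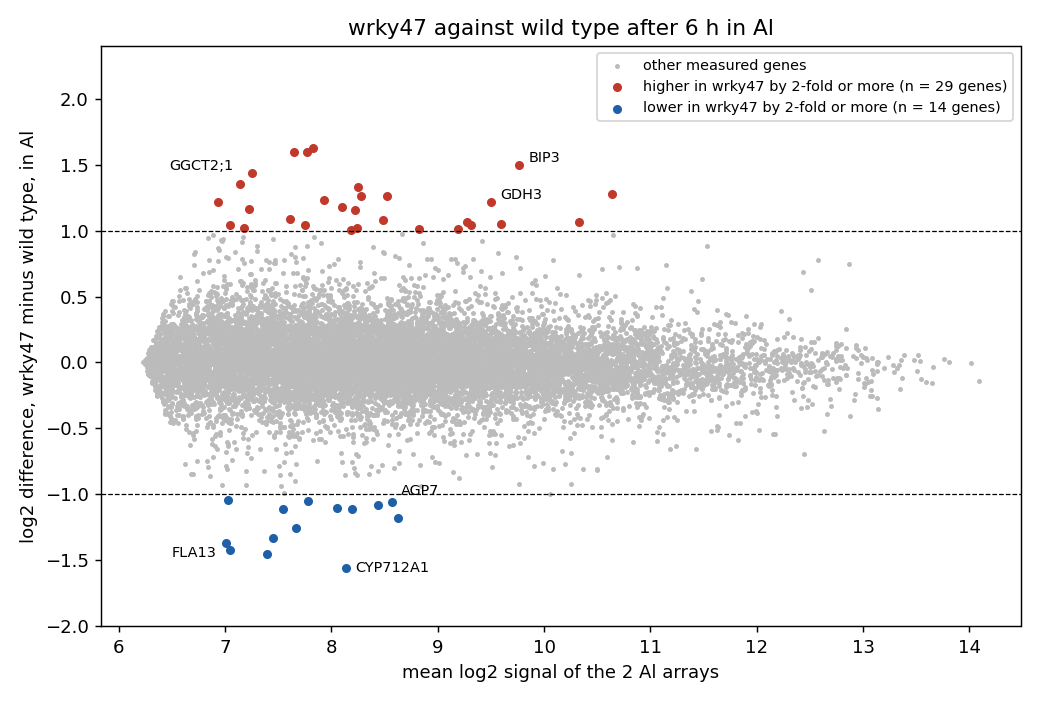
Log2 difference between wrky47 and wild type in Al (vertical axis) against the mean log2 signal of the 2 Al arrays (horizontal axis), 1 point per measured gene; dashed lines mark 2-fold. The 29 genes past 2-fold upward and the 14 past it downward lie mostly in the lower part of the signal range.

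Several of the genes past 2-fold were dim. The dimmer of the 2 signals was under 150.2, which is 2 times the floor, for 10 of the 29 higher genes (34.5%) and 7 of the 14 lower genes (50%), against 20.6% of all measured genes. With both signals at or above that level 19 higher and 7 lower genes were left, a filter chosen after seeing the data. BIP3, GDH3, CEP1, NYC1, ALD1, WRKY18 and JAL22 were among the bright ones on the higher side, and AGP7, TSBtype2 and CYP712A1 on the lower side.

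Among the genes with higher signal in the mutant, BIP3 had the largest difference of those with a symbol. BIP3 (AT1G09080), a stress-inducible Hsp70 chaperone of the endoplasmic reticulum lumen, had signals of 440.4, 692, 518 and 1462. The wrky47 Al array stood above the rest, and in Al it was 2.82-fold higher than in wild type. GGCT2;1 (AT5G26220), a gamma-glutamyl cyclotransferase that breaks down glutathione, had signals of 130, 215, 93.0 and 251 and was higher by 1.43. The wild-type Al array was its lowest and the wrky47 Al array its highest. PYD4 (AT3G08860), an aminotransferase of pyrimidine breakdown, had signals of 119, 177, 88.1 and 226 and a difference of 1.36, with the same order of arrays.

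GDH3, a mitochondrial glutamate dehydrogenase, had signals of 291, 422, 475 and 1103 and a difference of 1.22. NDB4, an external NAD(P)H dehydrogenase of the mitochondrial alternative pathway, had signals of 49.6, 78.5, 80.0 and 186 and a difference of 1.22. NDB4 was under the floor on both control arrays and only just above it on the wild-type Al array. CEP1, a papain-like endopeptidase with an endoplasmic reticulum retention tail that is known from dying tissues, had signals of 209, 411, 537 and 1109 and was higher by 1.05. NYC1, a chlorophyll b reductase of senescing leaves, had signals of 278, 518, 429.5 and 898 and was higher by 1.06. Both were higher in wrky47 than in wild type in each solution.

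Further genes on the higher side with a symbol were PIP5K2 at 1.18, a kinase that makes phosphatidylinositol 4,5-bisphosphate, EXLA3 at 1.16, an expansin-like protein, and LTP3 at 1.09, a lipid transfer protein. They continued with ATC at 1.08, a relative of the flowering inhibitor TFL1, CRK10 at 1.04, a cysteine-rich receptor kinase, and RLP22 at 1.02, a receptor-like protein. JAL22, a jacalin-related lectin, and TH7, a thioredoxin of the h type, stood at 1.01 each. ALD1 and WRKY18, at 1.04 and 1.01, are described with their gene groups. Genes without a symbol reached further. AT4G33710, annotated as a putative pathogenesis-related protein, had signals of 155, 185, 129 and 398 and the highest difference of all, 1.63. AT1G63530, a hypothetical protein, and AT2G04050 followed at 1.60 each. Each of these was brightest on the wrky47 Al array. AT2G04050 had signals of 64.3, 67.2, 116 and 350, so it was under the floor on both control arrays.

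Of the bounds on the higher side GolS2, a galactinol synthase of the raffinose pathway, had Al signals of 67.1 in wild type and 165 in wrky47, which sets a log2 difference of at least 1.13. AT5G22860, annotated as a serine carboxypeptidase, and AT5G39520, a hypothetical protein, were at least 1.33 and 1.12 higher on the same scale. RUS5, TFL1 and MYR2 had bounds of at least 0.95, 0.85 and 0.80.

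On the lower side CYP712A1 (AT2G42250), a cytochrome P450, had the largest measured difference. Its signals were 1598, 1208, 484 and 164, with both Al arrays below both control arrays, and it was lower in wrky47 by 1.56 (log2 difference -1.56). AT3G28550, annotated as a proline-rich extensin-like protein, had signals of 215, 107, 279 and 102 and a difference of -1.45. Both mutant arrays lay at less than the level of both wild-type arrays. FLA13 (AT5G44130), a fasciclin-like arabinogalactan protein of the cell surface, had signals of 97.1, 75.2, 216 and 80.7 and a difference of -1.42. FLA13 was brightest on the wild-type Al array and near the floor on the others.

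ATCTH, a zinc finger protein of the CCCH type, had signals of 419, 259.7, 313 and 131 and a difference of -1.25. TSBtype2, a tryptophan synthase beta chain, had signals of 547, 312, 430.1 and 199 and a difference of -1.11. TPS8, a class II member of the trehalose phosphate synthase family, had signals of 211, 111, 275 and 128 and also a difference of -1.11. Each of these was lower in wrky47 than in wild type in both solutions. AGP7, an arabinogalactan protein, had signals of 764, 481, 549 and 263 and a difference of -1.06.

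Just short of 2-fold were PEX11E at -0.9998, which acts in peroxisome proliferation, ZIP9 at -0.99, SULTR1;1 at -0.94 and GASA1 at -0.92, a gibberellin-regulated peptide. They were followed by ZIP2 and CP1 (AT4G36880), a cysteine protease, at -0.85 each, ATL15, a RING finger protein, at -0.84, and SLAH1, an anion channel subunit of the stele, and MEE14 at -0.83 each. RALFL27, a member of the RALF peptide family, passed 2-fold as a bound. Its signals were 528, 340.3, 177 and 74.7, the last under the floor, which made it at least 2.35-fold lower in wrky47. Both Al arrays lay below both control arrays for this gene.

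Genes of the xylem and its secondary wall were mostly lower in wrky47. Of 16 measured members 15 had a difference below 0 and 5 were lower by 1.5-fold or more, with a list median of -0.49 beside 0.00 over all measured genes. For this and each further list, the shares over all measured genes were 50.7% above 0, 1.36% higher by 1.5-fold and 1% lower by 1.5-fold. CESA4, 1 of the cellulose synthases of the secondary wall, had signals of 426, 352, 381 and 225 and a difference of -0.76. Its lowest array was wrky47 Al. CESA7 (IRX3) and CESA8 (IRX1), which work in the same complex, had differences of -0.65 and -0.57. FLA11 (signals of 600.2, 402, 518 and 305) and FLA12, fasciclin-like proteins of fibre and vessel walls, stood at -0.76 and -0.74. XCP1, a cysteine protease of xylem elements, stood at -0.69, COBL4 (IRX6) at -0.54, and the lignin laccases LAC4 (IRX12), LAC11 and LAC17 at -0.49, -0.49 and -0.42. FRA8, a glucuronoxylan glycosyltransferase, was the member above 0, at 0.10.

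The primary wall cellulose genes differed less. All 10 measured members had a difference below 0, with a median of -0.17, and 0 passed 1.5-fold. CTL1 (POM1), a chitinase-like protein needed for cellulose deposition, and CESA6 stood at -0.34 each, CESA2 at -0.31 and CESA1 at -0.27. CESA6 signals were 2271, 2229, 2509 and 1988, so the genotypes were close to each other in the control solution.

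Arabinogalactan and fasciclin-like proteins, heavily glycosylated proteins of the cell surface, were lower in wrky47 in 30 of 33 measured members, with a median of -0.26, and the median of all 45 without the detection filter was -0.17. FLA13 and AGP7 passed 2-fold, and 8 members passed 1.5-fold, all lower. Beside FLA13, AGP7, FLA11 and FLA12 these were FLA18 at -0.63, AGP4 at -0.62, AGP22 at -0.61 and AGP24 at -0.59. AGP4 had signals of 1553, 970.4, 706 and 458, with the mutant below the wild type in each solution. FLA11 and FLA12 are members of the secondary wall list as well. The other 12 of the 45 listed genes were below the floor on both Al arrays.

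Xyloglucan endotransglucosylase/hydrolases were lower in 15 of 20 measured members, with a median of -0.18, and 2 passed 1.5-fold. Without the detection filter the median of all 33 was -0.10. XTH14 had signals of 502, 259.8, 465 and 271 and a difference of -0.78, with both mutant arrays at less than either wild-type array. XTH17 was the other, at -0.69. XTH22 (TCH4), the touch-inducible member, had the signals 1662, 1288, 8535 and 7016 and a difference of -0.28. XTH31 was higher in the mutant in Al, at 0.32, and XTH26, XTH7 and XTH4 stood at -0.33, -0.31 and -0.31. The other 13 members were below the floor on both arrays. The family was listed with the published account of WRKY47 known and gives no independent evidence of a direction.

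Measured expansins, which loosen walls without cutting polymers, were mostly above 0. Of 13 measured members 11 were above 0, with a median of 0.20, against 0.05 over all 28 listed expansins without the detection filter. EXLA3 had signals of 220.0, 260.4, 199.6 and 446 and was higher by 1.16, and EXPB2 was higher by 0.67. EXPA6 stood at 0.45, EXPA1 at 0.38 and EXPA15 at 0.33, while EXPA11 stood at -0.42. EXPA6, EXPA1 and EXPA15 were lower in wrky47 than in wild type in the control solution, at -0.27, -0.53 and -0.26. The other 15 listed expansins were below the floor on 1 or both Al arrays. Extensins and proline-rich proteins were below 0 in 6 of 7 measured members, with EXT6 at -0.51 and EXT3 at -0.41; the member above 0, PRP39 at 0.23, carries the letters of the family but is a splicing factor.

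Measured genes of the Casparian strip and class III peroxidase lists were mostly lower in the mutant. Of the 11 genes of Casparian strip building 7 were measured, 5 of them below 0, with a median of -0.37. With the detection floor at the 60th percentile 2 members were left, and their median was 0.06. PER64, the peroxidase that polymerises lignin in the strip, had signals of 778, 434, 169 and 97.9 and a difference of -0.78. SGN1, a receptor-like kinase of the strip's surveillance system, stood at -0.62, ESB1, a dirigent protein, at -0.48, and CASP1, the scaffold protein, at -0.37. CASP1 signals were 2649, 1288, 249.5 and 193, with both Al arrays far below both control arrays. The other 4 members, below the floor on both Al arrays, left the scaffold family represented by CASP1. Suberin genes showed no common direction, with 8 of 17 above 0 and a median of -0.03, or -0.10 over the 15 left with the floor at the 60th percentile.

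Class III peroxidases were below 0 in 22 of 31 measured members, with a median of -0.20, and 5 were lower by 1.5-fold or more. Without the detection filter the median of all 47 was -0.06. PRX44, a peroxidase of root hair walls, had signals of 1307, 764, 797 and 435 and a difference of -0.87. The mutant was lower than the wild type in each solution. AT5G64120 stood at -0.85, PER64 at -0.78, AT4G30170 at -0.77 and AT1G30870 at -0.64. Of 20 root hair genes on the array 6 were measured in Al, and PRX44 was the one past 1.5-fold, while 12 were below the floor on both arrays. SHV2 (COBL9), a GPI-anchored protein of growing hairs, stood at -0.34, while CSLD3 and PRX73 (RHS19) were above 0, at 0.14 and 0.03. The median of the 6 root hair genes was -0.20. It was -0.02 over the 4 left with the floor at the 60th percentile and -0.27 over all 20 without the detection filter.

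Zinc and related metal transporters were lower in wrky47 in 9 of 11 measured members, with a median of -0.43, and 3 passed 1.5-fold. ZIP9, an uptake transporter of the zinc deficiency response, had signals of 47.7, 62.9, 265 and 133. It was under the floor on both control arrays, and its difference in Al was -0.99. ZIP3 had signals of 744, 698, 1256 and 730.1 and a difference of -0.78, with the wild-type Al array above the rest. ZIP2 stood at -0.85 and ZIP5 at -0.58. MTP1 (ZAT), which loads zinc into the vacuole, stood at -0.46, and HMA5, a copper-exporting ATPase, at -0.43. HMA4, which loads zinc into the xylem, stood at 0.08.

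Genes of sulfate uptake and sulfur starvation were higher in 12 of 15 measured members, with a median of 0.40; 5 were higher and 1 lower by 1.5-fold or more. With the floor at the 60th percentile the median of the 11 members left was 0.25. Beside GGCT2;1 the higher ones were SDI1 (ATSDI1) at 0.75 and SDI2 at 0.62, repressors of glucosinolate synthesis, LSU2 at 0.74, a small protein of the sulfur starvation response, and SULTR2;1 at 0.70, a vascular sulfate transporter. LSU2 had signals of 643, 692, 328 and 547, and the wild-type Al array was the lowest. SULTR1;1, a high-affinity uptake transporter of the root surface, went the other way, with signals of 1179, 1079, 637 and 332 and a difference of -0.94. SULTR1;2, the other main uptake transporter, stood at -0.15. The reductases APR1, APR3 and APR2 stood at 0.40, 0.35 and 0.13, and the sulfurylase APS3 at 0.47.

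Other transport genes gave smaller numbers. Aquaporins had a median of -0.21 over 14 measured members, with PIP1;5 at -0.71, PIP1;3 (PIP1C) at -0.54 and PIP2;4 at -0.50, while PIP2;5 stood at 0.49. NRT1.5, which loads nitrate into the xylem, was the nitrate response gene past 1.5-fold, with signals of 5836, 4563, 3448 and 2193 and a difference of -0.65. The median of the 19 measured nitrate genes was -0.04. Iron deficiency genes had a median of 0.07 over 13 members, which turned to -0.01 over all 22 without the detection filter. NAS2, a nicotianamine synthase, stood at 0.67 in that list.

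Genes of salicylic and pipecolic acid immunity were higher in wrky47 in 12 of 13 measured members, with a median of 0.45, and 5 passed 1.5-fold. ALD1 (AT2G13810), the aminotransferase that starts pipecolic acid synthesis, had signals of 270.3, 373, 444 and 912 and was higher by 1.04. FMO1, which makes N-hydroxypipecolic acid from it, had signals of 1507, 1588, 1301 and 2149.9 and was higher by 0.73. For both genes the wrky47 Al array was the brightest. ICS1 (EDS16), the isochorismate synthase of salicylic acid synthesis, was higher by 0.79, with signals of 701, 1012, 492 and 848, and the mutant was above the wild type in each solution. NIMIN1, a protein that binds the salicylic acid co-activator NPR1, stood at 0.78 and WRKY38 at 0.64. PBS3 and EDS5, which conjugate and export precursors of salicylic acid, stood at 0.55 and 0.45. The regulators EDS1, PAD4 and SARD1 stood at 0.26, 0.21 and 0.07, and NPR1 itself at -0.10.

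The WRKY family, apart from WRKY47, had 49 measured members, 31 of them above 0, with a median of 0.12. Over all measured genes 50.7% were above 0. In the family 6 passed 1.5-fold upward and 0 downward, beside 1.36% and 1% of all measured genes. Without the detection filter the median of all 58, WRKY47 included, was 0.07. WRKY18, a factor of immune and stress responses, had signals of 175, 197, 319 and 644 and was higher by 1.01. WRKY75, known from phosphate starvation and senescence, had signals of 107, 122, 448 and 757 and was higher by 0.76. In both, the genotypes were close in the control solution and apart in Al. The others were WRKY57 at 0.76, WRKY59 at 0.69, WRKY48 at 0.65 and WRKY38 at 0.64.

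NAC factors were above 0 in 28 of 35 measured members, with a median of 0.15, against 0.09 over all 67 without the detection filter. NAC019, a stress-responsive member, had signals of 45.5, 53.7, 174 and 327 and was higher by 0.91 in Al, and it was under the floor on both control arrays. NAC010 was higher by 0.76. Of the tau-class glutathione S-transferases, which detoxify reactive compounds, 14 of 21 were above 0, with a median of 0.21, which was 0.14 over the 17 left with the floor at the 60th percentile. GSTU25 had signals of 264, 435, 1152 and 2245 and was higher by 0.96. GSTU10 and GSTU6 were higher by 0.66 and 0.60. AOX1D, an alternative oxidase, was higher by 0.77 and FSD1, an iron superoxide dismutase, by 0.81. FSD1 was higher by 1.00 in the control solution. The median of their list of 14 measured genes of antioxidant enzymes and oxidant sources was -0.02, with 7 above 0 and 7 below. CYP71A12, a P450 of indole defence compounds, was higher by 0.92, whereas the median of its list of 18 camalexin and indole glucosinolate genes was -0.04.

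All 7 measured genes of the endoplasmic reticulum chaperone list, which includes the factor BZIP60, were above 0, with a median of 0.33. Next to BIP3, HSP90.7 (SHD), the Hsp90 of that compartment, had signals of 4331, 5180.2, 4371 and 7026 and was higher by 0.68. The wrky47 Al array stood above the rest. ERDJ3B (ATERDJ3B) stood at 0.46, CNX1, the lectin chaperone calnexin, at 0.33 and SDF2 at 0.28. BZIP60, which activates genes of the unfolded protein response, stood at 0.18. Nucleolar and ribosome assembly genes were above 0 in 8 of 9 members with a median of 0.22, led by NOP56 at 0.49, PUM24 at 0.40 and FIB2 at 0.38, and 0 passed 1.5-fold. Cytosolic ribosomal protein genes had a median of 0.03 over 138 members, and cell division genes 0.15 over 15, with 14 above 0, or 0.09 over the 6 left with the floor at the 60th percentile.

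Known aluminium tolerance genes differed little between the genotypes in Al. Of 18 measured members 0 passed 1.5-fold in either direction, 11 were above 0, and the median was 0.02. ALMT1, the malate channel, had signals of 1786, 1962, 3214 and 3474 and a difference of 0.11. MATE, the citrate transporter, had signals of 347, 389.9, 700.0 and 856 and a difference of 0.29. Both were higher on the Al arrays than on the control arrays in each genotype, with the mutant slightly above the wild type in each solution. STOP1 stood at -0.13 and its relative STOP2 at -0.39. ALS1 (ABCB27), a half-size ABC transporter of the vacuole, stood at 0.30, ALS3 at 0.03 and STAR1 (ABCI17) at -0.27. BCB, a blue copper protein of the wall, had the signals 405, 419, 3547 and 3613, far higher with Al in both genotypes, and differed by 0.03. WRKY46, described as a repressor of ALMT1, stood at 0.34.

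**Figure D3:**
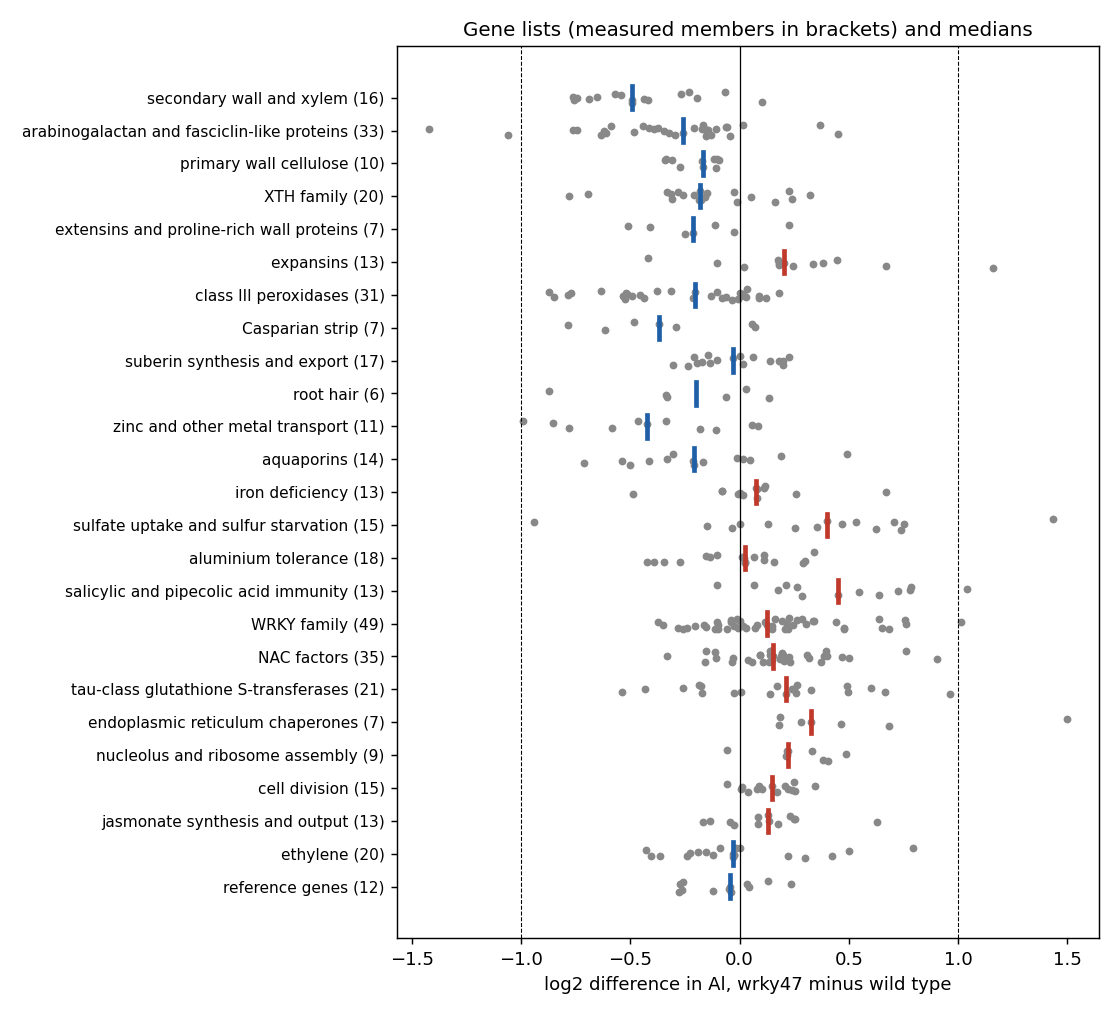
Log2 difference between wrky47 and wild type in Al (horizontal axis) for the measured members of 25 gene lists, 1 grey point per gene, with a coloured bar at each list's median (blue below 0, red above 0); dashed lines mark 2-fold and vertical scatter has no meaning. The medians run from -0.49 for secondary wall and xylem to 0.45 for salicylic and pipecolic acid immunity, with the aluminium tolerance list at 0.02.

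The 12 reference genes, whose levels are taken as steady in many plant tissues, had a median of -0.05, with 8 below 0. The lowest were PP2AA3 at -0.28, TUB6 and ACT8 at -0.27 each and ACT2 at -0.26. These lay about as far below 0 as, or further than, the medians of the arabinogalactan, xyloglucan enzyme, peroxidase and primary wall lists. The 4 above 0 included TIP41 at 0.23 and SAND at 0.13. The actin control probe sets of the array differed by -0.01 to 0.12 between the Al arrays. Photosynthesis markers were below 0 in 4 of 5 measured members, with LHCB5 and LHCA4 at -0.58 each. PHO1, a gene of the stele, stood at -0.47, and SCR and SHR stood at 0.05 and -0.02. The 7 measured root markers had a median of -0.29, with 5 below 0, among them NRT2.1 at -0.46, CASP1 at -0.37 and MYB36 at -0.29. CASP1 and MYB36 are members of the Casparian strip list as well. With the floor at the 60th percentile 5 root markers were left, and their median was -0.02. Of the other 8 photosynthesis genes 6 were below the floor on both Al arrays and 2 on 1 of them. Most measured photosynthesis markers and most measured root markers thus lay on the same side of 0 as several list medians. These were the medians of the xylem, arabinogalactan, xyloglucan enzyme, peroxidase and Casparian strip lists. The expansin median, at 0.20, lay on the other side, as did PYK10 at 0.13 and SCR, the 2 measured root markers above 0. Suberin genes had no common direction. The part of these markers in the list differences was not tested.

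The control solution gives a pair of arrays that shares neither array with the Al pair, so the genotype difference can be set side by side in the 2 solutions. Without Al, 13 of 12602 measured genes were higher in wrky47 by 2-fold or more (0.103%) and 26 were lower (0.206%). At 1.5-fold the counts were 116 (0.92%) and 236 (1.87%), and the median of all measured genes was -0.05. Of the genes past 2-fold in Al, 39 were also measured in the control solution, and all 39 lay on the same side of 0 there, 27 higher and 12 lower. Over all 12223 genes measured on the 4 arrays 61.6% had the same sign in both solutions, and 40.2% were above 0 in the control solution.

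The differences were smaller without Al for each of these 39 genes. The 27 higher genes had a median control difference of 0.57 (0.08 to 0.98) beside a median of 1.16 in Al, and the 12 lower genes -0.68 (-1.02 to -0.11) beside -1.15. They were selected for a large difference in Al, and no such selection was made in the control solution. Of the higher genes 13 passed 1.5-fold in the control solution and 0 passed 2-fold. Of the lower genes 8 passed 1.5-fold, and AT3G28550 at -1.002 and AT3G24100 at -1.02 passed 2-fold. CEP1 at 0.98, NYC1 at 0.90 and TPS8 at -0.92 were nearly as far apart without Al as with it. CRK10 stood at 0.84 without Al and 1.04 with it, and TSBtype2 at -0.81 and -1.11. WRKY18 at 0.18 and LTP3 at 0.08 were much less far apart without Al than with it.

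Taken from the other end, 9 genes higher by 2-fold in the control solution and measured on all arrays were all above 0 in Al, with a median of 0.70. Of 16 genes lower by 2-fold in the control solution 14 were below 0 in Al, with a median of -0.46. At 1.5-fold in both solutions there were 87 genes, of which 40 were higher in both, 45 were lower in both and 2 lay on opposite sides. Across the 12223 genes the differences in the 2 solutions gave Pearson's r = 0.43 and Spearman's rho = 0.37. Genes are not independent replicates, and both pairs share the mutant line, the array design and the processing, so these values describe the arrays.

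The lists differed in how far they did the same in the control solution. Over all 12223 genes measured on the 4 arrays 59.8% were below 0 there, and the median of all genes measured in the control solution was -0.05. Secondary wall genes had a median of -0.33 there with 14 of 16 below 0. Arabinogalactan and fasciclin-like proteins had -0.33 with 27 of 31 below 0, and xyloglucan enzymes -0.30 with 13 of 18 below 0. Class III peroxidases stood at -0.26, Casparian strip genes at -0.26 and sulfur genes at 0.18 with 14 of 15 above 0. Zinc and metal transporters stood at -0.07, primary wall cellulose genes at -0.01, salicylic and pipecolic acid genes at 0.08 and expansins at -0.09. These control medians cover the genes measured on all 4 arrays. Over the same genes the medians of the last 4 lists in Al were -0.38, -0.17, 0.45 and 0.21. Whether any list differed between the solutions was not tested, since each rests on single arrays.

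**Figure D4:**
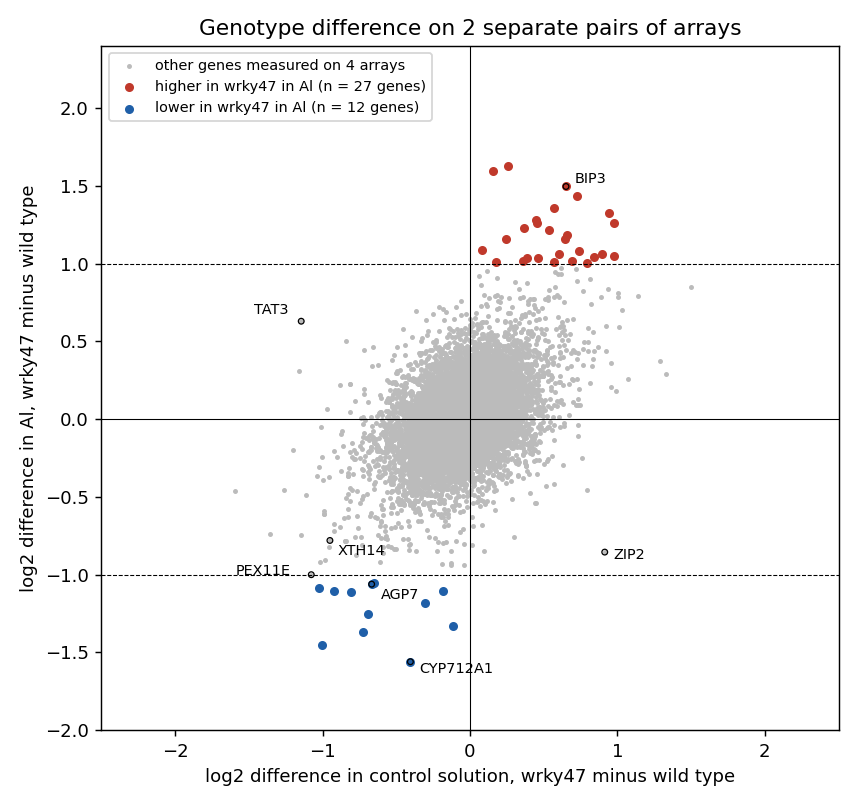
Log2 difference between wrky47 and wild type in Al (vertical axis) against that in control solution (horizontal axis) for the 12223 genes measured on the 4 arrays, 1 point per gene; colours mark the 27 and 12 genes past 2-fold in Al and dashed lines the 2-fold level in Al. All coloured points lie in the quadrants where both differences have the same sign, and TAT3 and ZIP2 lie in the other quadrants.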

How the data were processed

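Total RNA from 4 root samples was hybridised to 4 arrays, 1 for each genotype in each solution, as their labels name them. The authors deposited log2 signals of 22810 probe sets with Affymetrix-style names, between 3.35 and 14.16 per the file headers and the values. The authors' raw columns are linear intensity values, but their log2 matches the normalized columns (largest gap 1.6e-06), which makes them summarised signals and not scanner output. A second deposited table named by sample held the same values (0 differed). Per the submitters' processing notes the tool was MAS5. Not stated in these sources are its version and settings, how background was corrected, how arrays were scaled, and which genome build underlies the annotation. A scaling error would be part of each difference.

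The 64 control probe sets served only as controls. Of the other 22746, 20550 name 1 gene and were used, 987 name several genes and 1209 name none. Of the 205 genes with several probe sets each took the one with the highest mean. Gene codes matched RefSeq TAIR10.1 for 20277 of 20341 genes, and 8906 had a symbol. The detection floor was the 40th percentile of the 22746 probe sets on each array, with 12838 to 12855 genes above it per array. A gene above the floor on 1 array only was given as a bound, its signal over the other array's floor. The number of arrays limits the precision.

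The text names the 15 highest and 15 lowest measured genes with a symbol, WRKY47, ELP and XTH17, up to 6 members of a list by size of difference, up to 8 bounds and up to 3 genes without a symbol in each direction, and up to 10 genes past 2-fold on the same side in the control solution. Further genes without a symbol, GGCT2;1, TH7 and list members beyond the sixth were named after their values were seen. The comparison and the 55 gene lists were chosen with earlier results of these data known. The alternatives were quantile normalization, median centring, scaling to the 75th percentile, no detection filter and a stricter filter, 1.5-fold and 3-fold thresholds, the mean of a gene's probe sets, an offset before log2 and the second table. The computation was checked on simulated data. Python 3.11.15, numpy 2.4.6, pandas 2.3.3 and matplotlib 3.10.9 were used.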

Additional observations from a re-analysis of the deposited data

Results flagged for a closer look

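Of the 87 genes past 1.5-fold between the genotypes in both solutions, TAT3 and ZIP2 were the 2 that lay on opposite sides. TAT3, a tyrosine aminotransferase induced by jasmonate, had signals of 316, 143, 2298 and 3556 for wild type and then wrky47 in control solution, followed by wild type and then wrky47 in Al. It was higher in wrky47 in Al, with a log2 difference of 0.63, and lower in the control solution, at -1.14, and both genotypes were far brighter with Al. The 2 genotype differences were 1.77 apart. ZIP2, a transporter of the ZIP metal family, had signals of 625, 1179, 406 and 225. It was lower in wrky47 in Al, at -0.85, and higher in the control solution, at 0.91, and the differences were 1.77 apart in the opposite sense (-1.77). With 1 array in each group neither difference between the solutions was tested.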

How the results depend on the processing

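Each result rests on 1 array for each genotype, so no alternative replaces a replicate. No paired analysis was possible because every group holds 1 array and no result comes from a test. The counts of 29 higher and 14 lower genes in Al, and the 39 genes on the same side in the control solution, moved by less than 1.5 times under quantile normalization, median centring, scaling to the 75th percentile, the mean of probe sets and the second table. Without a detection filter 24 genes were lower and 61 of 63 lay on the same side. With a floor at the 60th percentile 11 were higher, 3 lower and 11 on the same side. A 1.5-fold threshold gave 171, 126 and 242, and a 3-fold threshold 3, 0 and 2. The offset gave 17, 9 and 24. With both signals at 2 times the floor or more, an alternative chosen after seeing the data, 19 were higher and 7 lower. These changes follow from the construction of each alternative, which tests other genes or shrinks the differences of dim ones. Of 2508 single-gene results 2487 kept their side of 2-fold, 17 lost 2-fold and 4 gained it. The sign changed in 1, HSP90.1, from 0.01 to -0.02, and in 0 of those past 2-fold. By 0.1 or more 13 of 439 list medians moved, all under a changed detection filter. The median changed sign for 9 lists under some alternative, among them Casparian strip (0.06 over 2 genes), iron deficiency (-0.01) and MYB factors (-0.005), and also lipid transfer proteins (0.17 to -0.12 over 1 gene) and root triterpene clusters (0.15 to -0.16 over 3 genes). Signals near the floor limit the comparison for dim genes.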

Other observations

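The jasmonate genes had a median log2 difference in Al of 0.13 over 13 measured members, 9 of them above 0. Without the detection filter the median of all 18 was 0.09. The ethylene genes had a median of -0.03 over 20. Among the ethylene genes ACS2, an ACC synthase, had signals of 44.4, 61.5, 99.3 and 172 for wild type and then wrky47 in control solution, followed by wild type and then wrky47 in Al, and was higher in wrky47 in Al by 0.79. It was under the floor on both control arrays. JAZ5, a repressor of jasmonate signalling, was higher by 0.63, and the 9 measured JAZ genes had a median of 0.17. Cytochromes P450 had a median of -0.04 over 68 measured members. Beside CYP712A1, CYP78A6 and CYP78A5 were lower, at -0.80 and -0.78, and CYP78A8 was higher, at 0.88. UGT74E2, a glucosyltransferase of indole-3-butyric acid, was higher by 0.83, and UGT71C1 was lower, at -0.79. MYB15, a factor of defence lignin and cold responses, had signals of 174, 236, 684 and 1124 and was higher by 0.72, in a family of 44 measured members with a median of 0.07, or -0.005 over all 113 without the detection filter.

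Probe sets outside the gene comparison were counted in the same way. Of 590 measured probe sets that name several genes 2 passed 2-fold upward and 3 downward in wrky47. Of 111 that name no gene 0 were in either direction. Beside these stand 29 higher (0.23%) and 14 lower (0.111%) of the 12602 measured genes. For 88 genes with more than 1 measured probe set the log2 differences of a gene's probe sets were 0.13 apart in the median and at most 0.53. None of the genes past 2-fold had a second probe set to compare with.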
